A study of Mus musculus with 28 samples.

Results

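The genes described here are 40 genes of DNA replication and S phase, chosen by name as the factors that license, open and copy a replication origin, supply its nucleotides and assemble chromatin behind it. A gene was measured by a probe set whose platform annotation names that gene alone, and where several did, by the one with the highest mean level in its experiment. Of the 40 genes, 38 had such a probe set, and Gins2 and Chaf1a were not measured here. The whole series covered 12393 genes in this way. The expression filter kept 36 of the 38 among 8422 genes in the sorted experiment and all 38 among 7235 genes in the transduced experiment. Orc1, the largest subunit of the origin recognition complex, and Ccne1, cyclin E1, failed the filter in the sorted experiment and were not tested there.

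The series holds 28 expression arrays of mouse bone marrow cells in 2 experiments whose RNA was amplified on different days, so levels are not compared between them. In the sorted experiment, L-GMP (6 arrays) are leukaemic cells sorted as Lin-, sca-, kit+, FCR+ and CD34+. They are set against 4 sorts of normal marrow: HSC (5 arrays, a stem cell enriched fraction, Lin-, sca+, kit+), MEP (3 arrays, megakaryocyte-erythroid progenitors, Lin-, sca-, kit+, FCR-, CD34-), CMP (4 arrays, common myeloid progenitors, Lin-, sca-, kit+, FCR+, CD34low) and GMP (4 arrays, granulocyte-macrophage progenitors, as CMP but CD34high). Common myeloid progenitors are usually gated as low for the Fc receptor, so this CMP gate differs from the usual one, and CMP here means only the sort so labelled. In the transduced experiment, GMP expressing MLL-AF9, the fusion of the histone methyltransferase MLL with the elongation factor subunit AF9, were set against GMP expressing GFP, with 3 arrays each. Each sample held about 10000 sorted cells, and strain, age, vector and pooling of animals are not given in the sources used here. The Lin-, sca+, kit+ fraction is known to hold multipotent progenitors beside stem cells. Nothing states that replicates came from separate animals, so the p-values cover only the spread between these samples, and that spread may be technical.

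Before S phase, the origin recognition complex recruits Cdc6 and Cdt1, which load the inactive MCM helicase onto DNA, and geminin (Gmnn) blocks Cdt1 until the next cycle. Mcm10, Cdc45 and the GINS complex turn the loaded helicase on, DNA polymerase alpha with primase makes the first primers, the clamp loader RFC sets the PCNA clamp on them, and polymerases delta and epsilon extend them. Many of these genes are transcribed at the border of G1 and S phase by E2F factors, so their RNA is commonly read as a sign of cycling cells. In adult marrow, stem cells are known to divide rarely, while committed myeloid progenitors cycle actively. Each array measures a pool of cells, in which fewer cycling cells and less replication gene RNA per cell cannot be told apart.

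Promoters of 32 of the 40 genes were present in the RefSeq table of build GRCm38.p6, as 37 windows that run from 250 bases before to 50 bases after a transcription start. The E2F letters TTTCCCGC, TTTCGCGC, TTTGCCGC or TTTGGCGC, on either strand, occurred in 11 of these 37 windows (29.7%) and in 744 of all 32851 windows (2.26%). The CCAAT letters, searched on both strands, occurred in 21 of the 37 windows (56.8%) and in 37.4% of all windows. The windows of 6 genes are printed 5′ to 3′ along the gene's strand, with E2F matches in capitals and all other bases in lower case. Rrm2, Cdc45, Cdc6 and Mcm5 are shown because their RNA was lower in HSC than in GMP, Mcm6 because it holds 3 matches and passed no test between sorts, and Pola1 because it was lower in L-GMP than in GMP.
Rrm2 promoter (chr12:24708004-24708303, plus strand): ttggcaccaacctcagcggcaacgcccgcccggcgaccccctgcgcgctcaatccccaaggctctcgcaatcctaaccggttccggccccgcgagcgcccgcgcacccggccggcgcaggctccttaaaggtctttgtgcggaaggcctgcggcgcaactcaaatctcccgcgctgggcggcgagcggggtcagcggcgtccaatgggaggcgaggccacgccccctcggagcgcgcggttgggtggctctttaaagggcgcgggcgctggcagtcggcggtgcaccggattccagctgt
Cdc45 promoter (chr16:18811923-18812222, minus strand): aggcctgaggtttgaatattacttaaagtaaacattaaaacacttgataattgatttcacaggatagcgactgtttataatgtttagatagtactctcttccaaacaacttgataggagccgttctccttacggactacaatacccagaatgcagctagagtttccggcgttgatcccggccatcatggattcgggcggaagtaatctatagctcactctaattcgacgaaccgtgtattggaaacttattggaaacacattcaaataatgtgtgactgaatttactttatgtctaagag
Cdc6 promoter (chr11:98907901-98908200, plus strand): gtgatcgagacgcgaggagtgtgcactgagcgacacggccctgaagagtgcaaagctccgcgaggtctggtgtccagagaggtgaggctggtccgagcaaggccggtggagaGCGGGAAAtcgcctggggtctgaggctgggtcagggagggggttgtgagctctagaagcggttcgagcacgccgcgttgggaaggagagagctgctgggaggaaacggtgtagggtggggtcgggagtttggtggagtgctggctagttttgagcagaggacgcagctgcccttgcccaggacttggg
Mcm5 promoter (chr8:75109259-75109558, plus strand): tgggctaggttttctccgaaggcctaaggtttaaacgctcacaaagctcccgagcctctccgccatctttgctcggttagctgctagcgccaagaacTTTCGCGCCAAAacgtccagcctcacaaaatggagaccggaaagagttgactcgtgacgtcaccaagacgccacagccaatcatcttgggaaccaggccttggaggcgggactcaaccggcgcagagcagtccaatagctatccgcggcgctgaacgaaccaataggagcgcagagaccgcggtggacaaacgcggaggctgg
Mcm6 promoter (chr1:128359656-128359955, minus strand): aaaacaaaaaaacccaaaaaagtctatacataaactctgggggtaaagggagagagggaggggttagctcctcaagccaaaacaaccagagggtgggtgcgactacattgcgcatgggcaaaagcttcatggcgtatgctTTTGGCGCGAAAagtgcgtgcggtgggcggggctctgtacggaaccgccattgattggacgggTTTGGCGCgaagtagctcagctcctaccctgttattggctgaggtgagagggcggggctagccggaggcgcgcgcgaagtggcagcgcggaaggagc
Pola1 promoter (chrX:93632106-93632405, minus strand): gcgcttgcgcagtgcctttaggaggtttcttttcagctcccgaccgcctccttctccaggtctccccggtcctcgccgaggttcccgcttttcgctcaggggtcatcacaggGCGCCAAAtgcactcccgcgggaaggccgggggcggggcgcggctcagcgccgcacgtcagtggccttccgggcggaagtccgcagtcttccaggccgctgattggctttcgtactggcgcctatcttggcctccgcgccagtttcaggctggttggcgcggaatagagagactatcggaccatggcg
The Rrm2 and Cdc45 windows hold none of the E2F letters, while Cdc6 and Pola1 hold 1 match each, Mcm5 holds 2 that overlap and Mcm6 holds 3, of which 2 overlap. Among the tested genes with a window, those with a match had a median log2 change of -0.31 in HSC against GMP (10 genes, 5 called lower), and those with none had -0.46 (19 genes, 12 called lower). A match of letters is a description of the window only.

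Levels are log2 array intensities after scaling each array to a common mean, so a change in the total RNA of a cell cannot be seen. Most defining markers, though not all, were highest in the normal sort they stand for. This held for 6 of 7 erythroid and megakaryocyte genes in MEP, for 4 of 5 stem cell genes in HSC and for 5 of 6 GMP genes in GMP, while Csf3r averaged 7.97 in both HSC and GMP. Itga2b was highest in CMP (11.01, against 10.62 in MEP), Slamf1 was higher in MEP (7.499) and CMP (6.73) than in HSC (6.31), and Mecom, one of the 4, was dim and nearly flat (5.70 to 5.82 over the normal sorts). Elane, a neutrophil protease of GMP, averaged 12.35 in L-GMP, 7.07 in HSC, 7.77 in MEP, 8.56 in CMP and 12.60 in GMP. Klf1, an erythroid factor, lay at the measurement floor on every L-GMP, HSC and GMP array, and Procr, a stem cell marker, lay at the floor on every L-GMP, MEP and GMP array but on no HSC array. The mean of 11 mitosis genes ranged from 9.57 to 10.04 in L-GMP, 8.13 to 9.32 in HSC, 9.07 to 9.47 in MEP, 9.17 to 9.65 in CMP and 9.38 to 9.91 in GMP. The 9 tested sort stress genes, 7 immediate early genes and the heat shock genes Hspa1a and Hspa1b, which handling of cells can induce, had a mean of 6.66 to 7.94 in L-GMP, 7.59 to 7.60 on replicate 1 of GMP and CMP, and 9.21 to 11.91 on the other normal arrays. HSC replicate 4 stood apart, with the lowest mean of the 36 replication genes (9.01, against 9.45 to 9.59 on the other HSC arrays) and the lowest mitosis mean (8.13). It also had the highest sort stress mean (11.91). Its log2 3'/5' signal ratio of Actb and Gapdh was the highest of its sort (3.27, against 2.93 to 3.24). That ratio was 2.72 to 2.95 in L-GMP, 2.99 to 3.18 in MEP, 2.92 to 3.06 in CMP and 2.60 to 3.33 in GMP. L-GMP and MEP thus did not overlap in it, and its part in their differences was not tested beyond a fit with it as a covariate. HSC replicate 3 had the highest GMP marker mean of its sort (9.86, against 8.09 to 9.03).

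By their mean, replication genes were lowest in the stem cell enriched sort, though its arrays overlapped those of MEP (9.01 to 9.59 against 9.42 to 9.85). Only HSC replicate 4 lay below every MEP array. By group mean, HSC was the lowest of the 5 sorts for 21 of the 36 tested genes, L-GMP for 8, MEP for 6, GMP for 1 and CMP for 0. The highest sort was CMP for 12 genes, GMP for 11, L-GMP for 8, HSC for 3 and MEP for 2. Such counts were not made over all genes. Averaged over the 36 genes, levels were 9.70 ± 0.11 in L-GMP, 9.43 ± 0.24 in HSC, 9.62 ± 0.22 in MEP, 9.79 ± 0.07 in CMP and 9.86 ± 0.07 in GMP (SD over arrays, n = 6, 5, 3, 4 and 4). Any difference between the sorts passed limma's F-test, at a Benjamini-Hochberg adjusted p under 0.05, for 24 of the 36 genes (66.7%), beside 62.5% of all genes tested, so this share is close to the background.

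**Figure D1:**
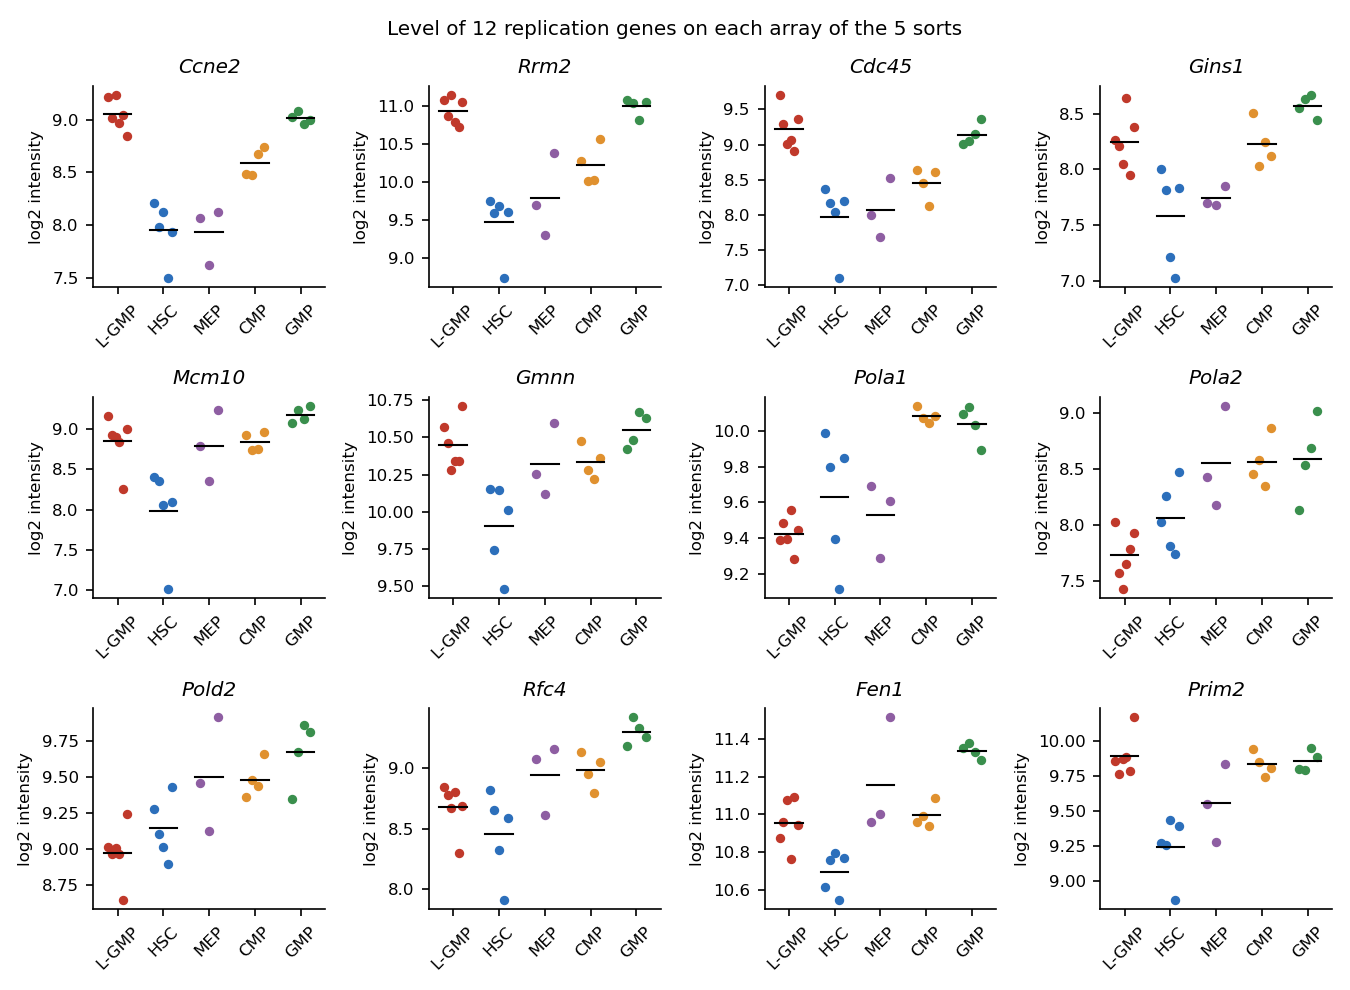
Each point is the log2 intensity of a gene on 1 array and each bar the mean of a sort, for 12 replication genes, with the sorts in the order L-GMP, HSC, MEP, CMP and GMP and a separate vertical scale per gene. Ccne2, Rrm2 and Cdc45 sat high in L-GMP and GMP and low in HSC and MEP, while Pola1, Pola2 and Pold2 sat low in L-GMP.

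Normal HSC differed from normal GMP in 22 of the 36 replication genes, and all 22 were lower in HSC (61.1%), beside 21.8% of all genes called lower in that comparison. None of the 36 was called higher in HSC, beside 19.4% of all genes. The median log2 change over the 36 genes was -0.43, beside 0.01 over all genes tested. The 22 genes came from 8 of the 9 roles; of chromatin assembly only Chaf1b was tested, and it was not called. Of the 22 calls, 13 held under every alternative tried, and without HSC replicate 4 the comparison gave 17 genes lower and 2 higher.

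The factors that switch the helicase on were lower in HSC as a group, with 3 of 3 tested genes called. Cdc45, which joins MCM and GINS into the active helicase, had log2 levels of 8.37, 8.17, 8.04, 7.10 and 8.19 in HSC. In GMP its levels were 9.01, 9.05, 9.15 and 9.36, and no HSC array reached the lowest GMP array. The log2 change of Cdc45 in HSC against GMP was -1.17 ± 0.22 (SE, limma adjusted p = 0.000207), and -0.95 without HSC replicate 4. Mcm10, a scaffold that helps to activate the helicase, was measured at 8.41, 8.35, 8.05, 7.01 and 8.09 in HSC, against 9.07, 9.23, 9.13 and 9.29 in GMP. Its change was -1.20 ± 0.23 (limma adjusted p = 0.000248), the groups did not overlap, and HSC replicate 4 was again the lowest. Gins1, a subunit of GINS, had 8.003, 7.81, 7.22, 7.02 and 7.83 in HSC, against 8.55, 8.63, 8.67 and 8.45 in GMP, a change of -0.995 ± 0.17 (limma adjusted p = 8.8e-05).

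Nucleotide supply showed the single largest change among the 36 genes. Rrm2, the S phase subunit of ribonucleotide reductase, which makes deoxynucleotides, had levels of 9.74, 9.59, 9.68, 8.73 and 9.60 in HSC, against 11.08, 11.04, 10.82 and 11.05 in GMP. The log2 change was -1.53 ± 0.20 (limma adjusted p = 3.11e-06), every HSC array lay below every GMP array, and both other Rrm2 probe sets were also lower, by -1.84 and -2.54. Tk1, a thymidine kinase, changed by -0.78 ± 0.24, with 9.36, 9.12, 9.19, 7.73 and 9.31 in HSC against 9.50, 9.66, 9.78 and 9.95 in GMP. Its change was -0.48 without HSC replicate 4 and still called (limma adjusted p = 0.0140), but not in a fit of HSC and GMP alone (adjusted p = 0.0723). Rrm1, the large subunit of the reductase, was called at -0.52 ± 0.19 but not without HSC replicate 4 (-0.34, limma adjusted p = 0.101), nor without GMP replicate 3 or 4. It was also not called with the mean of its 2 probe sets (-0.43, limma adjusted p = 0.104), the 3'/5' covariate, no filter or a fit of HSC and GMP alone. Tyms, thymidylate synthase, was not called (0.22 ± 0.28).

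Origin licensing split, with 6 of 10 tested genes lower in HSC than in GMP. Gmnn had levels of 10.15, 9.74, 10.14, 9.48 and 10.01 in HSC, against 10.42, 10.48, 10.67 and 10.63 in GMP, a change of -0.65 ± 0.13 (limma adjusted p = 0.000549) with no overlap. Cdc6 changed by -0.78 ± 0.18 and Cdt1 by -0.53 ± 0.12, and both kept their call under every alternative. The other 3 were less secure: Orc6 (-0.40), a small subunit of the origin recognition complex, was not called without HSC replicate 4 or GMP replicate 2, 3 or 4, Mcm4 (-0.35) not without HSC replicate 2 or 5 or GMP replicate 1 or 2, and Mcm5 (-0.55) not without GMP replicate 4. The other helicase subunits were not called, with changes of -0.15 for Mcm2, -0.20 for Mcm3, 0.03 for Mcm6 and -0.20 for Mcm7. A dimmer second probe set of Mcm2 was called lower, at -0.50 (adjusted p = 0.0211). Of 4 Mcm7 probe sets, each tested alone, 2 were called lower and 0 higher.

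Of the polymerases and primase, 5 of 7 were lower in HSC than in GMP. Prim2, the large primase subunit, had levels of 9.27, 9.26, 9.44, 8.87 and 9.40 in HSC, against 9.80, 9.80, 9.95 and 9.88 in GMP. Its change was -0.61 ± 0.12 (limma adjusted p = 0.000297) with no overlap. Pold2, an accessory subunit of polymerase delta, changed by -0.53 ± 0.15. The catalytic subunits Pola1 (-0.41 ± 0.14) and Pold1 (-0.52 ± 0.13) and the alpha subunit Pola2 (-0.53 ± 0.20) were called too, but a second Pold1 probe set was not (0.11 ± 0.23), and averaging the Pold1 probe sets ended its call (adjusted p = 0.295). Pola1 lost its call without HSC replicate 3 or 4 or GMP replicate 2, and Pola2 without HSC replicate 1, 3 or 4 or GMP replicate 2, 3 or 4. Prim1, the catalytic primase subunit (-0.22), and Pole, the catalytic subunit of polymerase epsilon (0.21), were not called.

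Of the clamp and its loader, 2 of 6 tested genes were lower in HSC than in GMP. Rfc4, a loader subunit, had 8.82, 8.65, 8.32, 7.91 and 8.59 in HSC, against 9.18, 9.42, 9.33 and 9.25 in GMP, a change of -0.84 ± 0.16 (limma adjusted p = 0.000197). Rfc5 was lower by -0.46 ± 0.16, and not called without HSC replicate 4 or GMP replicate 3 or 4. Pcna, the sliding clamp, was measured at 11.56, 11.68, 11.56, 11.58 and 11.77 in HSC, against 11.45, 11.35, 11.84 and 11.67 in GMP. Its group means over all 5 sorts lay within 0.10 log2 units of each other, the smallest range of the 36 genes, and its F-test p was 0.928.

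Lagging strand processing, single-strand binding and the S phase cyclin each gave 1 called gene. Fen1, the flap nuclease that trims Okazaki fragments, had 10.62, 10.76, 10.80, 10.55 and 10.77 in HSC, against 11.35, 11.38, 11.33 and 11.29 in GMP, a change of -0.64 ± 0.10 (limma adjusted p = 3.47e-05). Lig1, the ligase that joins those fragments, was not called (-0.16 ± 0.19). Rpa1, the large subunit of the single-strand binding protein, had 11.84, 11.80, 11.71, 11.53 and 11.85 in HSC, against 12.01, 12.03, 12.11 and 12.18 in GMP, a change of -0.34 ± 0.09 without overlap. Ccne2, cyclin E2, which drives entry into S phase, had 8.21, 7.98, 8.13, 7.49 and 7.93 in HSC, against 9.02, 9.08, 8.96 and 8.99 in GMP. Its change was -1.07 ± 0.13 (limma adjusted p = 1.15e-06). Chaf1b, a chromatin assembly factor subunit, changed by 0.28 ± 0.12 and was not called.

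**Figure D2:**
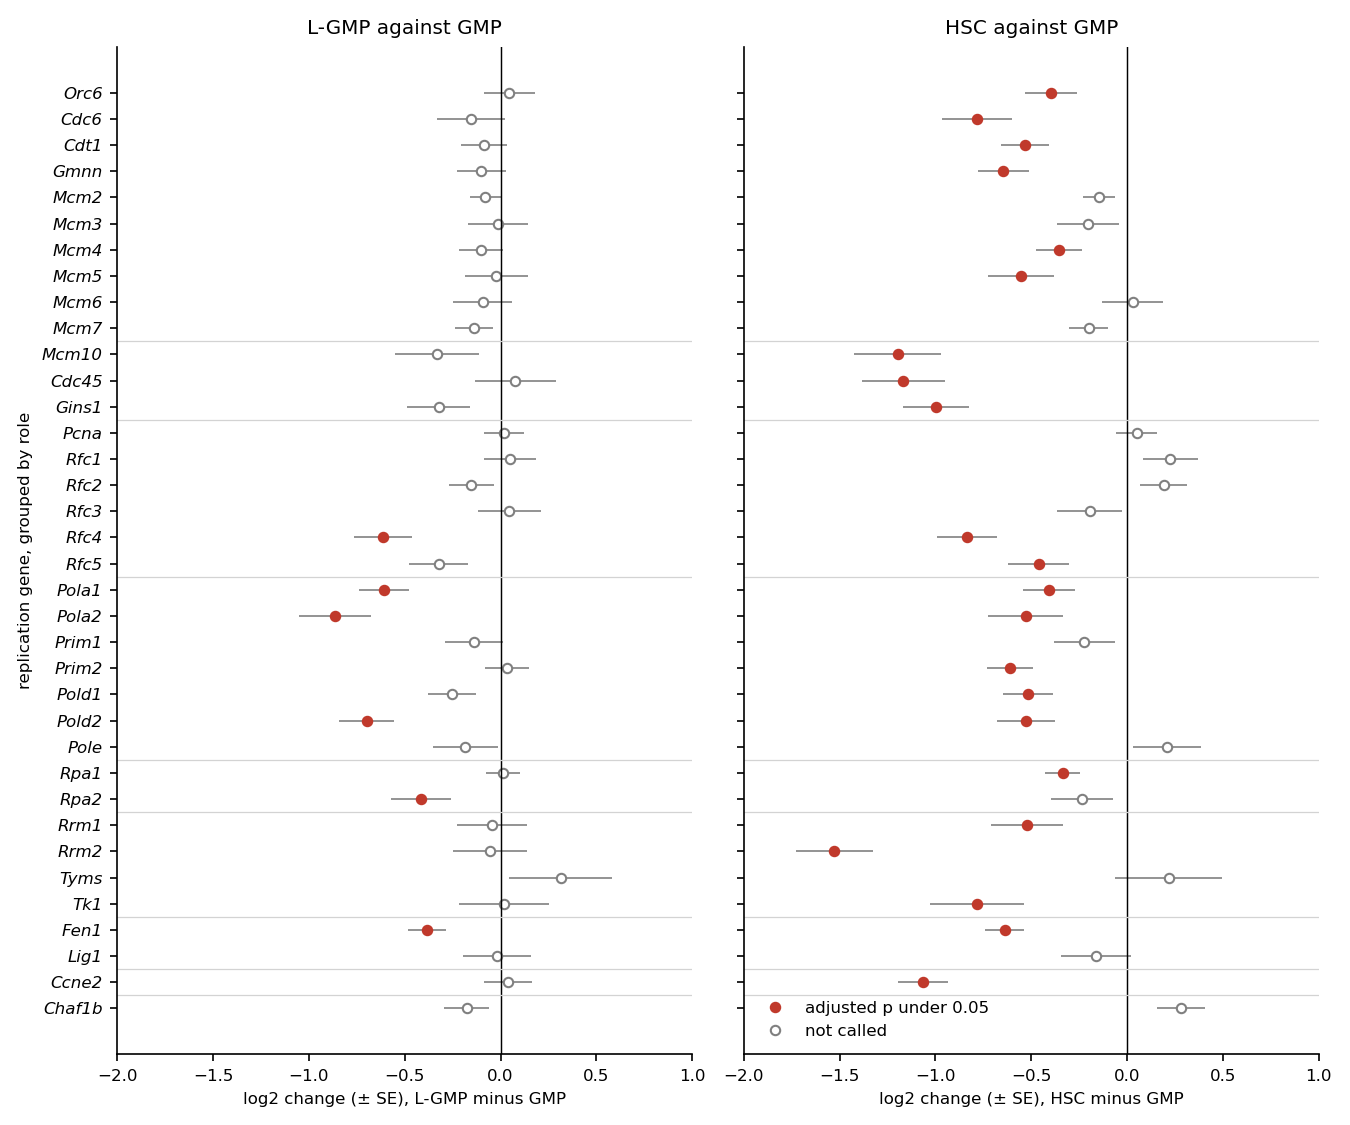
Log2 change with its standard error for each of the 36 tested replication genes, in L-GMP minus GMP on the left and HSC minus GMP on the right, with filled points at an adjusted p under 0.05 and grey lines between roles. In HSC 22 genes were called, all lower, and in L-GMP 6 were called, all lower.

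Against CMP, 14 of the 36 genes were lower in HSC (38.9%) and none higher, beside 7.43% and 6.01% of all genes. The median change was -0.39. Ccne2 (-0.64 ± 0.13), Prim2 (-0.59 ± 0.12), Cdt1 (-0.52 ± 0.12) and Mcm2 (-0.38 ± 0.09) kept their calls under every alternative. The count fell to 8 without HSC replicate 4, CMP replicate 1 or CMP replicate 2, and to 6 without CMP replicate 4. Against MEP, 9 genes were lower in HSC and 1 higher, beside 15.5% and 17.4% of all genes. Fen1 (-0.46 ± 0.11) was the only one of these 10 that stayed called under every alternative, and without MEP replicate 3 it was the only call, with a change of -0.28. That MEP array had the highest mean of the 36 genes among the 3 (9.85, against 9.42 and 9.58). The HSC against MEP count was 6 without HSC replicate 2 or 4.

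Genes outside the 36 were taken from a list of other replication genes. In HSC against GMP, 18 of its 33 tested genes were lower and 1 higher. Those with the smallest p were Recql4 (-1.24 ± 0.19), a helicase, Dna2 (-1.04 ± 0.17), a nuclease and helicase, Chtf18 (-0.98 ± 0.17), of an alternative clamp loader, and Dbf4 (-0.88 ± 0.16), the activator of the Cdc7 kinase. Of 11 tested S phase regulators, 5 were lower and 1 higher, among them E2f8 (-1.36 ± 0.17), a repressor of the E2F family that is itself made in S phase, and Tfdp1 (-0.71 ± 0.09), the partner of E2F factors. Of 11 mitosis genes, 8 were lower in HSC than in GMP and none was higher. The part of the mitosis genes, of sort stress genes (2 of 9 higher in HSC than in GMP) and of HSC replicate 4 in the lower replication genes beyond the counts given here was not tested. Leaving out replicate 1 of HSC, CMP and GMP together, chosen after the data were seen because their sort stress genes were the lowest of their sorts, gave 21 lower and 0 higher against GMP.

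Most replication genes did not differ detectably between L-GMP and normal GMP. Of the 36, 6 were called lower in L-GMP (16.7%) and none higher, beside 18.3% and 15.2% of all genes, so the share of lower genes was near the background. The median change over the 36 was -0.10, beside 0.01 over all genes, and 10 of 36 changes were above 0. The 6 genes were Pola2, Pold2, Rfc4, Pola1, Rpa2 and Fen1, and all but Rpa2 held under every alternative. By role, 3 of 7 polymerase and primase genes were lower, 1 of 6 clamp and loader genes, 1 of 2 single-strand binding genes and 1 of 2 lagging strand genes, while none of 10 licensing, 3 helicase activation and 4 nucleotide supply genes was called.

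Both tested subunits of polymerase alpha were lower in L-GMP than in GMP, while the primase subunits that act with it were not called. Prim1 averaged 9.90 in L-GMP and 10.04 in GMP, and Prim2 averaged 9.89 and 9.86. Pola2, which links polymerase alpha to the helicase, had a lowest, median and highest level of 7.43, 7.72 and 8.02 over 6 L-GMP arrays. Its levels were 8.13, 8.54, 8.69 and 9.02 in GMP, so no L-GMP array reached the lowest GMP array. The log2 change was -0.86 ± 0.19 (SE, limma adjusted p = 0.00117). Pola2 measured 8.03, 8.26, 7.81, 7.75 and 8.47 in HSC, 8.43, 8.18 and 9.06 in MEP, and 8.46, 8.58, 8.35 and 8.87 in CMP, so L-GMP overlapped HSC only. Pola1, the catalytic subunit, whose promoter with 1 E2F match is printed above, had 9.28, 9.42 and 9.56 in L-GMP (lowest, median and highest), against 10.09, 10.13, 10.04 and 9.89 in GMP. Its change was -0.61 ± 0.13 (limma adjusted p = 0.000969). The levels of Pola1 were 9.99, 9.80, 9.40, 9.12 and 9.85 in HSC, 9.69, 9.29 and 9.61 in MEP, and 10.14, 10.07, 10.05 and 10.08 in CMP. CMP and GMP thus lay above every L-GMP array, while HSC and MEP overlapped it.

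Pold2 and Rfc4 followed at a smaller size. Pold2 had 8.64, 8.99 and 9.24 in L-GMP (lowest, median and highest), against 9.34, 9.67, 9.86 and 9.81 in GMP, a change of -0.70 ± 0.14 (limma adjusted p = 0.000742). Its levels were 9.28, 9.10, 9.01, 8.89 and 9.43 in HSC, 9.46, 9.13 and 9.92 in MEP, and 9.36, 9.48, 9.43 and 9.66 in CMP. No L-GMP array reached the lowest CMP or GMP array. Rfc4 had 8.30, 8.73 and 8.85 in L-GMP, against 9.18, 9.42, 9.33 and 9.25 in GMP, and a second Rfc4 probe set was lower too (-0.39 ± 0.13, adjusted p = 0.0262). The change of Rfc4 was -0.61 ± 0.15 (limma adjusted p = 0.00314), and its levels were 9.07, 8.61 and 9.15 in MEP and 9.13, 8.95, 8.80 and 9.05 in CMP. Fen1 had 10.77, 10.95 and 11.09 in L-GMP and changed by -0.38 ± 0.10 against GMP (limma adjusted p = 0.00428), with no overlap, and its second probe set changed by -0.50 ± 0.17. Fen1 measured 10.96, 11.001 and 11.51 in MEP and 10.96, 10.99, 10.94 and 11.09 in CMP.

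Rpa2, the middle subunit of the single-strand binding protein, was the weakest of the 6, at -0.42 ± 0.16 (limma adjusted p = 0.0439), with 8.83, 9.15 and 9.59 in L-GMP against 9.53, 9.53, 9.75 and 9.59 in GMP. It was not called without L-GMP replicate 1, 2, 3 or 5, nor without any single GMP array. Its partner Rpa1 did not differ detectably, with 11.98, 12.12 and 12.18 in L-GMP and a change of 0.01 ± 0.09. In the list of other replication genes, 9 of 33 were lower in L-GMP than in GMP and 3 higher, led by Pold4 (0.69 ± 0.11), the smallest subunit of polymerase delta, Dctpp1 (-0.57 ± 0.10), a nucleotide pyrophosphatase, Pole3 (-0.68 ± 0.13), of polymerase epsilon, and Asf1b (0.60 ± 0.16), a histone chaperone. Polymerase delta subunits thus changed in both directions, with Pold2 lower and Pold4 higher. Of 11 S phase regulators, E2f3, a transcription factor, was called (0.59 ± 0.18). Of the 11 mitosis genes 1 was higher and none lower. Of 9 sort stress genes 2 were lower in L-GMP, and of 5 monocyte and macrophage genes 2 were higher and 1 lower, with means of 9.60 to 9.96 in L-GMP and 9.02 to 9.15 in GMP. The sort stress mean was 7.59 on GMP replicate 1, within the L-GMP range, and 9.98 to 10.36 on the other GMP arrays. Without replicate 1 of HSC, CMP and GMP, which leaves only GMP arrays above L-GMP in these genes, 5 of the 6 were called. The part of these lists in the 6 calls was not tested.

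**Figure D3:**
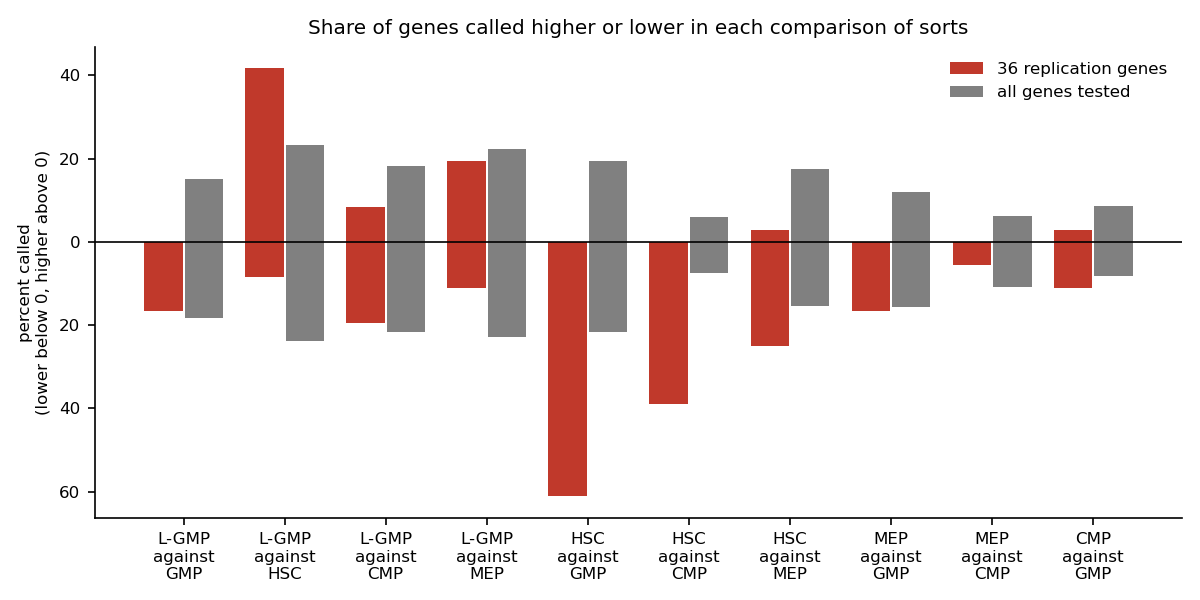
Share of genes called higher (upward) or lower (downward) at an adjusted p under 0.05 in each comparison of sorts, with the 36 replication genes in red and all 8422 genes tested in grey. The red bars reached 61.1% lower in HSC against GMP, 38.9% lower in HSC against CMP and 41.7% higher in L-GMP against HSC, where the grey bars reached 21.8%, 7.43% and 23.3%.

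L-GMP exceeded HSC in 15 of the 36 genes (41.7%) and fell below it in 3 (8.33%), beside 23.3% and 23.9% of all genes. The median change was 0.23, and without HSC replicate 4 the counts were 13 higher and 4 lower. This contrast shares its HSC arrays with those above. Rrm2 was higher by 1.47 ± 0.18 (limma adjusted p = 6.88e-07), Cdc45 by 1.24 ± 0.20 (2.02e-05) and Ccne2 by 1.10 ± 0.12 (7.76e-08). Rrm2 had 10.72, 10.96 and 11.14 in L-GMP (lowest, median and highest), Cdc45 had 8.90, 9.18 and 9.70, and Ccne2 had 8.84, 9.03 and 9.23. None of these 3 genes overlapped HSC. Mcm10 had 8.25, 8.92 and 9.17 in L-GMP and was higher by 0.87 ± 0.21, with L-GMP replicate 5, its lowest array, inside the HSC range.

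Further called genes differed less. Gins1, with 7.95, 8.24 and 8.64 in L-GMP, was higher by 0.67 ± 0.16, Prim2, with 9.76, 9.87 and 10.17, by 0.64 ± 0.11, and Gmnn, with 10.28, 10.40 and 10.71, by 0.55 ± 0.12. Tk1 was higher by 0.80 ± 0.22, but by 0.50 without HSC replicate 4. Cdc6 (0.63), Mcm5 (0.53), Cdt1 (0.45), Orc6 (0.44) and Rpa1 (0.35) kept their calls under every alternative. Fen1 (0.25) was not called without HSC replicate 1 or 4 or L-GMP replicate 3 or 5. Rrm1 (0.48) was not called without HSC replicate 4 or L-GMP replicate 1 or 2. With the mean of its 2 probe sets the change was 0.33 and not called (limma adjusted p = 0.158). Its call also ended with the 3'/5' covariate, the replicate block and a fit of L-GMP and HSC alone. Chaf1b was lower, with 7.33, 7.74 and 7.89 in L-GMP, against 8.30, 8.12, 7.96, 8.05 and 8.39 in HSC, a change of -0.46 ± 0.11 (limma adjusted p = 0.00174) with no overlap. Rfc2, a clamp loader subunit, changed by -0.34 ± 0.11, not called with the 3'/5' covariate (adjusted p = 0.0955), and Pole by -0.39 ± 0.16, a call that ended without HSC replicate 1, 2, 3 or 5 or L-GMP replicate 2, 3 or 5. In the same comparison, 11 of 11 mitosis genes were higher in L-GMP, and 9 of 9 sort stress genes were lower, whose part was not tested.

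Against CMP, 3 genes were higher in L-GMP and 7 lower, beside 18.3% and 21.6% of all genes, and against MEP, 7 were higher and 4 lower, beside 22.2% and 22.9%. All 4 shares of the 36 genes were below the background. Rrm2, Cdc45 and Ccne2 were the 3 genes above CMP, at 0.72 ± 0.19, 0.76 ± 0.21 and 0.46 ± 0.12. Rrm2 had 10.28, 10.01, 10.02 and 10.56 in CMP, Cdc45 had 8.64, 8.45, 8.13 and 8.61, and Ccne2 had 8.49, 8.48, 8.67 and 8.74. For each of them every CMP array lay below every L-GMP array. They were also above MEP, at 1.15 ± 0.21, 1.15 ± 0.23 and 1.12 ± 0.14, with MEP levels of 9.70, 9.30 and 10.38 for Rrm2, 7.99, 7.69 and 8.53 for Cdc45, and 8.06, 7.62 and 8.12 for Ccne2. Against GMP their changes in L-GMP were -0.06 ± 0.19, 0.08 ± 0.21 and 0.04 ± 0.12, and none was called. By group mean, both Rrm2 and Cdc45 had L-GMP and GMP at the top, then CMP, MEP and HSC. HSC against MEP was not called for Rrm2 (-0.32 ± 0.22), Cdc45 (-0.09 ± 0.24) or Ccne2 (0.01 ± 0.14).

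Pola2 and Pold2 stayed lower in L-GMP than in CMP (-0.83 ± 0.19 and -0.51 ± 0.14) and MEP (-0.82 ± 0.21 and -0.53 ± 0.16), though Pold2 against MEP was not called without MEP replicate 3 (-0.32, limma adjusted p = 0.125). Pola1 was lower than in CMP (-0.66 ± 0.13). Chaf1b was lower than in CMP (-0.40 ± 0.12) and MEP (-0.35 ± 0.13), with levels of 8.05, 7.92 and 8.19 in MEP and 7.91, 8.17, 8.05 and 8.27 in CMP, and its MEP call ended without L-GMP replicate 5 or MEP replicate 1 or 3. Rfc2 (-0.55 ± 0.12), Mcm2 (-0.31 ± 0.08) and Rpa2 (-0.47 ± 0.16) were lower than in CMP too, though Rpa2 was not called without replicate 1 of HSC, CMP and GMP (adjusted p = 0.0566). Mcm2 was also lower than in MEP (-0.25 ± 0.09), not without MEP replicate 3. Rpa1 was higher than in MEP (0.35 ± 0.10, not called without MEP replicate 2), with 11.68, 11.55 and 11.999 in MEP. Gins1 (0.50), Prim2 (0.34) and Tk1 (0.73) were called above MEP as well, and none of these 3 was called without MEP replicate 1 or without MEP replicate 2, the lowest MEP array by the mean of the 36 genes. The count against MEP was 7 without MEP replicate 2.

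Among the normal progenitors fewer genes were called than in HSC against GMP or CMP. The shares called lower than GMP were near those of all genes, and the shares called higher were below them. CMP had 4 genes lower than GMP and 1 higher, beside 8.18% and 8.6% of all genes, and MEP had 6 lower than GMP and none higher, beside 15.6% and 11.9%. In CMP these were Rrm2, Cdc45, Ccne2 and Fen1 (lower) and Rfc2 (higher). Leaving out any single CMP or GMP array reduced this count to between 1 and 3. Rrm2 (-0.78, limma adjusted p = 0.0132) stayed called with any single one of these arrays left out. It was not called without replicate 1 of HSC, CMP and GMP together. Each of the others lost its call without at least 1 single array. In MEP the lower genes were Rrm2 (-1.20 ± 0.23), Ccne2 (-1.08 ± 0.15), Cdc45 (-1.07 ± 0.25), Gins1 (-0.83 ± 0.20), Pola1 (-0.51 ± 0.15) and Rpa1 (-0.34 ± 0.10). Pola1 lost its call without MEP replicate 2, and Rpa1 without MEP replicate 1 or 2 or GMP replicate 4. MEP against CMP gave 2 lower genes, Ccne2 (-0.66 ± 0.15) and Pola1 (-0.55 ± 0.15), beside 10.9% of all genes, and none higher, beside 6.19%. That count was 1 without MEP replicate 2 and 4 without MEP replicate 3. Gins1 had levels of 7.70, 7.68 and 7.85 in MEP and 8.50, 8.03, 8.25 and 8.12 in CMP, with no overlap (-0.48 ± 0.20, not called). Prim2 had 9.55, 9.28 and 9.84 in MEP and 9.94, 9.85, 9.74 and 9.81 in CMP. Gmnn had 10.25, 10.12 and 10.60 in MEP and 10.47, 10.28, 10.22 and 10.36 in CMP, and for both genes the sorts overlapped.

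Orc1 and Ccne1 were too dim in the sorted experiment to be tested. Orc1 had 5.98, 6.10 and 6.42 in L-GMP (lowest, median and highest), 5.51, 5.70, 5.71, 5.64 and 5.63 in HSC, 5.80, 5.88 and 6.13 in MEP, 6.02, 5.997, 5.91 and 6.18 in CMP, and 6.50, 6.55, 6.42 and 5.99 in GMP. Ccne1 lay at the floor on 2 L-GMP, 3 HSC, 2 CMP and 1 GMP arrays and on no MEP array, and no fold is given for it.

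The 36 genes varied together across the 22 sorted arrays. Each gene was correlated with the mean of the others, and the median Pearson r was 0.73 (range -0.63 to 0.92), beside a median of -0.02 for all tested genes against the mean of the 36. After removal of the group means the median was 0.75. HSC replicate 4, the lowest array by the mean of the 36, was included and may weigh on it, and r was not computed without that array. These values describe arrays that share scaling and amplification, and no test is attached to them. Mcm10 lay highest, and 2 genes lay below 0, Tyms at -0.63 and Chaf1b at -0.06. The genes outside the 36 with the highest r to their mean were Fignl1 (0.94), Rad51ap1 (0.93), Cenph (0.93), Rad54l (0.91), Cenpk (0.90), Trip13 (0.90), Haus5 (0.89), Cenpn (0.89), Cdca5 (0.89) and Nasp (0.89), over 22 arrays.

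**Figure D4:**
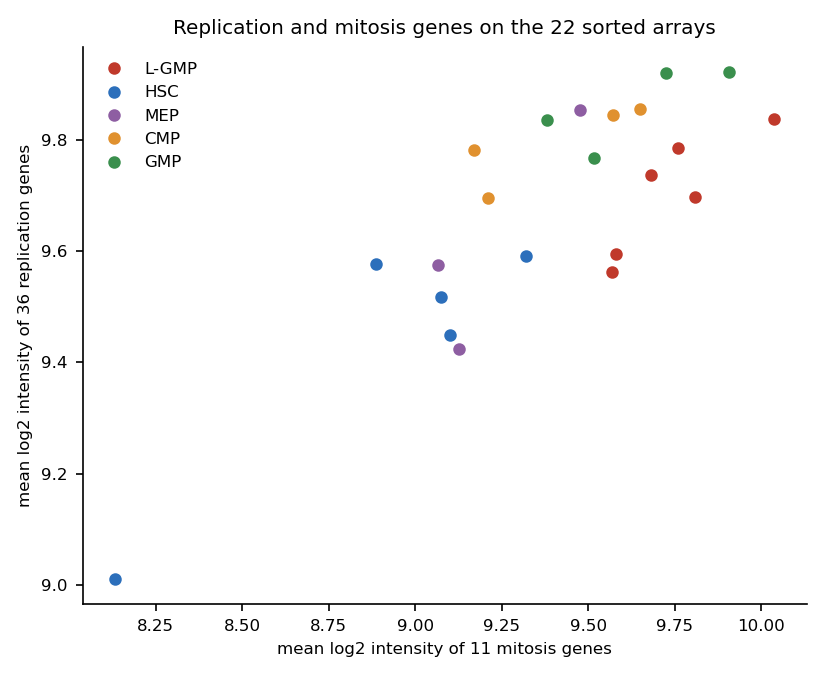
Each point is 1 of the 22 sorted arrays, with the mean log2 intensity of 11 mitosis genes on the horizontal axis and of the 36 replication genes on the vertical axis, coloured by sort. HSC replicate 4 lies at the lower left, at 8.13 and 9.01.

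In the transduced experiment, no replication gene was called between GMP expressing MLL-AF9 and GMP expressing GFP. Of 38 tested genes 0 passed an adjusted p under 0.05 in limma, beside 0.0276% of all genes (2 of 7235), and 1 had an unadjusted p under 0.05, beside 740 of all genes. With the replicate number as a block, 126 of all genes were called (1.74%) and again 0 of the 38. Changes ranged from -0.20 to 0.44 with a median of 0.08, and 25 of 38 lay above 0. The mean of the tested genes was 11.32 ± 0.03 with MLL-AF9 and 11.26 ± 0.09 with GFP (SD, n = 3 each).

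The 3 genes with the smallest p were all higher with MLL-AF9 by their means. Chaf1b had 9.69, 9.61 and 9.18 with MLL-AF9, against 8.82, 9.24 and 9.11 with GFP, a change of 0.44 ± 0.18 (limma adjusted p = 0.483, and 0.241 with the block), and the groups overlapped. Pold1 had 12.07, 11.84 and 11.49 with MLL-AF9, against 11.31, 11.45 and 11.48 with GFP, a change of 0.39 ± 0.16 (limma adjusted p = 0.494). Mcm10 had 11.33, 11.13 and 11.04, against 10.77, 10.98 and 10.92, a change of 0.28 ± 0.13 (limma adjusted p = 0.503). For Pold1 and Mcm10 the groups did not overlap, as for 8.4% of all genes in that direction. The genes that set HSC apart from GMP in the other experiment had small changes here, of 0.00 ± 0.11 for Rrm2, -0.12 ± 0.15 for Cdc45, 0.11 ± 0.21 for Ccne2 and 0.15 ± 0.11 for Gins1. Pola1 and Pola2 changed by 0.11 ± 0.15 and 0.13 ± 0.15. Of 33 other replication genes, 10 S phase regulators and 11 mitosis genes, none was called. For 4 of 5 monocyte and macrophage genes every MLL-AF9 array lay below every GFP array, beside 9.04% of all genes, and their part in these changes was not tested.

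**Figure D5:**
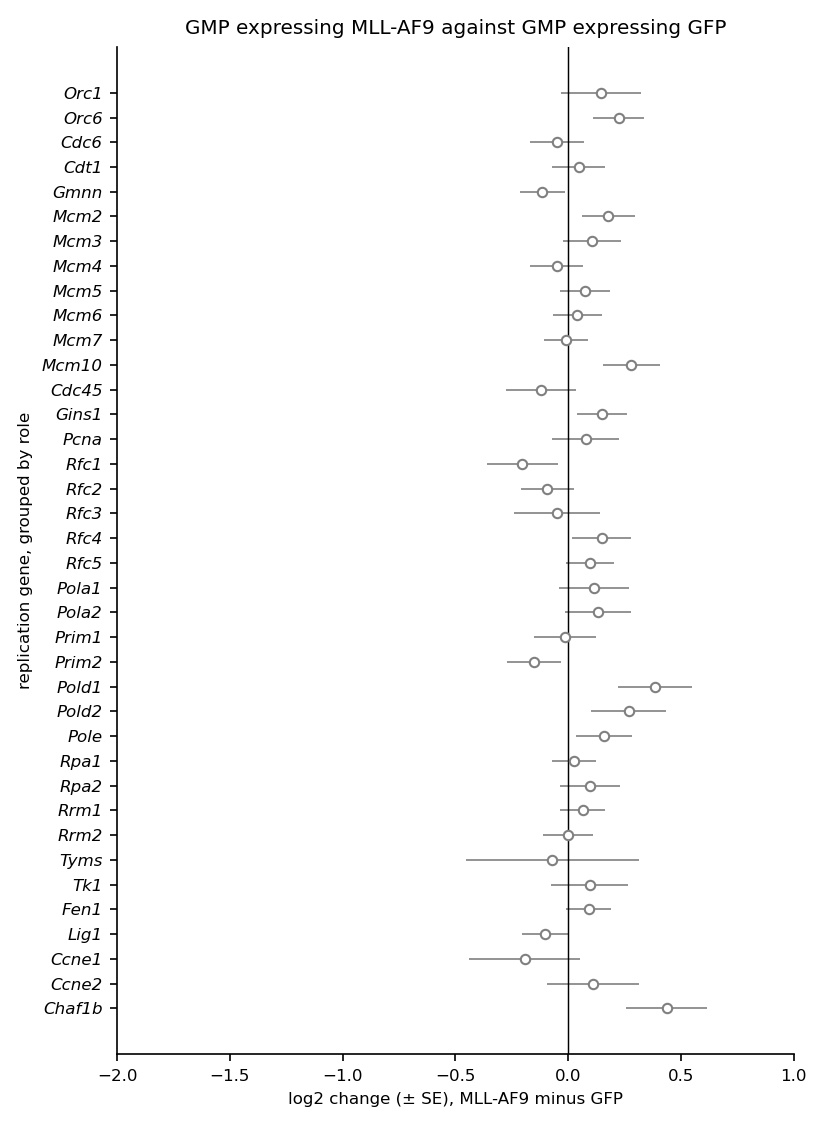
Log2 change with its standard error of each of the 38 replication genes in GMP expressing MLL-AF9 minus GMP expressing GFP, in the order of their roles. All points lie between -0.20 and 0.44, and none was called.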

How the data were processed

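Arrays of 28 samples gave the values, which the authors deposited as linear probe set intensities. The submitters' processing notes name MAS5 and give no version. Scaling target, genome build and the origin of values at or below 0 are not given in the sources used here. Groups and replicate numbers came from the sample titles. Within each experiment arrays were scaled to a common mean after trimming 2% at each end (factors 0.923 to 1.12), values under the 25th percentile were set to that floor (38.7 sorted, 78.0 transduced), and log2 was taken. Probe sets above the experiment's median on at least 3 arrays were kept. The 22 sorted arrays shared 1 fit in limma 3.58.1 (R 4.3.3, moderated two-sided tests) with 10 contrasts, and the 6 transduced arrays another. P-values were Benjamini-Hochberg adjusted over all genes tested, and a gene was called under 0.05. The fit was tested on simulated data. The arrays give no counts, so no counting error is given, and the number of arrays limits the precision. Same-numbered transduced arrays correlated after removal of group means in 3 of 3 pairs (r 0.379 to 0.596 across genes), so that comparison is also given with the replicate block. GFP replicate 3 with MLL-AF9 replicate 2 also correlated (r 0.474), while other differently numbered pairs had r from -0.616 to 0.192. The numbers need not mark true pairs. Same-numbered sorted arrays correlated in 18 of 37 pairs. The annotation named 1 gene for 20380 probe sets, several for 691 and none for 1555, and the 64 control probe sets were left out.

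Values by array (for the 6 L-GMP arrays the lowest, median and highest) are given for the 8 genes with the smallest F-test p, the 4 largest called changes of L-GMP against GMP, the 3 smallest p of MLL-AF9 against GFP and 1 gene of each role not yet covered. Tk1, Tyms, Pcna, Rpa2, Orc1 and Ccne1 were added after their values were seen. Of other lists up to 4 called genes with the smallest p are named, and the 10 genes most like the mean. The members and lists were chosen with earlier results of these data known. Alternatives were another floor, no filter, quantile normalization, the mean of a gene's probe sets, the 3'/5' signal ratio of Actb and Gapdh as a covariate, the replicate block, each comparison fitted alone, each array left out in turn and, added after the data were seen, 3 arrays with low sort stress genes left out together.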

Additional observations from a re-analysis of the deposited data

Results flagged for a closer look

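The gap of the highest or lowest array to its neighbour was set against the range of its group. It passed Dixon's critical value in 18 of 148 tested groups of 4 to 10 arrays. Chance gives about 1 in 20 for a single group, but these groups share arrays and hold genes that vary together. The 18 are thus not independent, and their number is not read against chance. HSC replicate 4 accounted for 12 of the 18, always as the lowest array. Its log2 levels were 7.18 for Cdc6, 10.83 for Mcm6, 11.78 for Mcm7, 7.01 for Mcm10, 7.10 for Cdc45, 9.46 for Rfc1, 10.25 for Rfc2, 9.17 for Prim1, 8.06 for Pole, 8.73 for Rrm2 and 7.73 for Tk1, and 9.01 for the mean of the replication genes. The nearest other HSC arrays had 7.97 for Cdc6, 8.05 for Mcm10, 8.04 for Cdc45, 9.88 for Prim1, 9.59 for Rrm2 and 9.12 for Tk1. The counts of HSC against each other sort without this array stand beside those comparisons. In L-GMP, Mcm10 and Rfc4 were low on replicate 5 (8.25 and 8.30), Rfc2 was low on replicate 3 (9.78) and Prim2 was high on replicate 6 (10.17). Rrm2 was low on GMP replicate 3 (10.82) and Mcm3 on CMP replicate 3 (10.14).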

How the results depend on the processing

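Of 104 calls of a replication gene in a comparison of sorts, none changed direction under any alternative. Of 1789 recomputed values 1538 stayed called, but 957 of the 1789 came from leaving out 1 array, so they are not independent. Under every alternative, L-GMP kept 5 of 6 calls against GMP and 14 of 18 against HSC. It kept 9 of 10 against CMP and 4 of 11 against MEP. HSC kept 13 of 22 against GMP, 4 of 14 against CMP and 1 of 10 against MEP. CMP kept 0 of 5 and MEP 4 of 6 against GMP, and MEP kept 1 of 2 against CMP. The count of genes in CMP against GMP was 5, and 0 without the 3 arrays low in sort stress genes, 2 with the 3'/5' covariate and 3 with the replicate block. In HSC against MEP it was 10, and 1 with only the arrays of these sorts and 5 with the replicate block. L-GMP against MEP gave 11, and 6 with the 3'/5' covariate, and MEP against CMP gave 2, and 4 with the mean of probe sets. The cause was not tested. With each array left out in turn, counts ranged from 21 to 25 for the F-test (24 with all arrays), 1 to 3 for CMP against GMP, 6 to 16 for HSC against CMP (14), 17 to 21 for HSC against GMP (22), 1 to 13 for HSC against MEP, 10 to 11 for L-GMP against CMP (10), 5 to 6 for L-GMP against GMP (6), 16 to 19 for L-GMP against HSC (18), 7 to 12 for L-GMP against MEP, 1 to 4 for MEP against CMP, 4 to 9 for MEP against GMP (6) and 0 to 0 for MLL-AF9 against GFP. Replicate numbers did not pair the sorted arrays by the rule used, and the replicate block moved no other count by over 1.5 times. Levels near the floor have no reliable order, and 3 arrays a group, in MEP and in the transduced experiment, limit what those comparisons can show.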

Other observations

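Tyms, thymidylate synthase, ran against the other replication genes across the sorted arrays (r = -0.63 with their mean). Only 1 of 3 Tyms probe sets passed the filter, so this rests on that probe set. Its probe set had 7.66, 8.23 and 9.004 in L-GMP (lowest, median and highest), 7.83, 8.09, 8.29, 8.79 and 7.74 in HSC, 8.18, 8.14 and 7.42 in MEP, 7.82, 8.28, 8.04 and 7.67 in CMP, and 8.61, 8.19, 7.57 and 7.36 in GMP. The highest HSC value was that of HSC replicate 4, the array with the lowest mean of the replication genes. Another pattern lay among the other replication genes: Orc5, a subunit of the origin recognition complex, was higher in MEP than in CMP by 1.24 ± 0.19 and than in GMP by 1.16 ± 0.19 (limma adjusted p under 0.05), and it was lower in L-GMP than in MEP by -1.22 ± 0.18 and in HSC than in MEP by -1.06 ± 0.19. Rfc1, the large clamp loader subunit, was the 1 gene of the 36 called higher in HSC than in MEP (0.47 ± 0.15), as were 2 of its 3 probe sets. It was not called without HSC replicate 2, MEP replicate 3 or the 3 arrays low in sort stress genes, nor in a fit of HSC and MEP alone. In HSC against GMP its probe sets disagreed: the dimmest was called lower (-0.61 ± 0.19) while the others changed by 0.23 ± 0.14 and 0.01 ± 0.11.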
